A study of Mus musculus with 4 samples.

Results

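Recirculating-type double-negative T cells are T cells of the gut epithelial layer with transcripts of S1pr1, Lef1 or Ly6c2 and no detected transcript of the co-receptors CD4 or CD8. They were selected on measured values, and the name is a working label: 187 of the 656 cells held Ly6c2 with no UMI of S1pr1 or Lef1. A cell barcode was taken when it held at least 1 UMI (unique molecular identifier, a count of 1 captured transcript molecule) of Cd3d, Cd3e or Cd3g and a sum of at least 2 UMIs of S1pr1, Lef1 and Ly6c2. It also had to hold no UMI of Cd8a, Cd8b1, Cd4, Trdc, Cd79a or Lyz2, and fewer than 2 UMIs of the helper genes Cd40lg, Icos, Izumo1r and Tnfrsf4 together. The rule found 656 cells among 14378 barcodes, of which 9916 held a Cd3 UMI. The cecum library gave 332 of them, the colon 283, the stomach 36 and the small intestine 5. Because the rule used the genes of these same cells, every contrast with other cells below is a description with no test.

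The study profiled live CD45+ leukocytes, sorted as CD45.2+, of the intraepithelial preparation of uninfected C57BL/6 mice, with no genetic modification or treatment named for any group. Each of the 4 tissues (stomach, small intestine, cecum and colon) was 1 library made with the 10x Genomics 3′ chemistry, whose reads come from transcript 3′ ends. The labels give neither the age nor the number of mice behind a library, and the extraction text of all 4 records speaks of colons only. Tissue, animal, library and run can therefore not be told apart, no p-value was computed, and ranges in parentheses are exact 95% intervals that cover counting error only. Total depth was between 8568438 and 12988676 UMIs per library. Median depths of the recirculating-type cells were 1819 UMIs (cecum), 2606 (colon), 2321 (stomach) and 2476 (small intestine). Across all pairs of libraries 23 barcodes were shared, and 3 of these belonged to recirculating-type cells.

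T cells leave tissues and lymph nodes through S1PR1, a receptor that senses sphingosine 1-phosphate, and the transcription factor KLF2 drives S1pr1. LEF1 and TCF7 are transcription factors of naive and memory T cells, and CCR7 guides cells into lymph nodes. Ly6c2 encodes a surface protein carried by many memory CD8 T cells. Intraepithelial T cells that stay in the tissue instead carry CD69, which opposes S1PR1, and the integrin CD103 (Itgae), which binds E-cadherin on epithelial cells.

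Of the rule's genes, Ly6c2 had the highest summed level. It was seen in 76.5% of the recirculating-type cells of the cecum and in 74.2% of those of the colon, against 41.3% and 63.6% for S1pr1 and 42.8% and 48.1% for Lef1. Ly6c2 (GRCm38 chr15:75108158-75111970, minus strand) has a close copy, Ly6c1, on the same strand (chr15:75044018-75048830). The near-identical copy matters for the count: over the last 400 bases of their longest GENCODE coding transcripts the genes were 98.2% identical where aligned, and 34 of 310 windows of 91 bases in Ly6c2 also occurred whole in Ly6c1. How reads common to both genes were counted is not given in the sources used here. The counts were nevertheless very unequal in these cells, with 1026 UMIs of Ly6c2 and 4 of Ly6c1 in cecum, 1082 and 20 in colon, 212 and 3 in stomach, and 13 and 2 in small intestine. The promoters differ more than the transcript ends. They are shown because the cells carried transcripts assigned to Ly6c2 and few assigned to its copy (RefSeq, GRCm38.p6, 250 bases before to 50 after the start, 5′ to 3′ on the gene's strand, chr15:75111922-75112221 for Ly6c2 and chr15:75048788-75049087 for Ly6c1). Capitals mark bases that differ or have no partner in an alignment of the pair, in which 208 positions were identical and 58 mismatched.
Ly6c2: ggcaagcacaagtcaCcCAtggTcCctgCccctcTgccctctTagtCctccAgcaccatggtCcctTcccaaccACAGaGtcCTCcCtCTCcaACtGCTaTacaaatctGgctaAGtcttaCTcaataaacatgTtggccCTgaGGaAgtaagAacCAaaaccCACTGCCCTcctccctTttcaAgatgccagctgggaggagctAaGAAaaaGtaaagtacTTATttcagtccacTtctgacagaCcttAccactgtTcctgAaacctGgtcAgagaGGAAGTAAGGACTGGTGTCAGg
Ly6c1: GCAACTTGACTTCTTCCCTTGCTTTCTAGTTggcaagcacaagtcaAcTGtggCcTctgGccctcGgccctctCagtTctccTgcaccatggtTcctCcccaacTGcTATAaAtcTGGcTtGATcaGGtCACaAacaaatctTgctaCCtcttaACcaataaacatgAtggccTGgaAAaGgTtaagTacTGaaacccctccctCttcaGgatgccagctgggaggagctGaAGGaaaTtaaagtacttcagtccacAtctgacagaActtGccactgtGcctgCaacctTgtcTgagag
No factor binding or chromatin was measured, so the sequences are given as context only.

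The share of T cells that were of the recirculating type was similar in 3 libraries and near 0 in the other. They made up 9.76% (6.93 to 13.3) of barcodes with a Cd3 UMI in stomach, 9.39% (8.45 to 10.4) in cecum and 8.26% (7.36 to 9.23) in colon. In the small intestine the share was 0.193% (0.0628 to 0.451), the lowest of the 4, and its interval did not overlap those of the others. After thinning each cell to 1000 UMIs the values were 10% (6.85 to 14.0), 6.63% (5.82 to 7.52) and 6.13% (5.33 to 7.0) in stomach, cecum and colon, and 0.318% (0.138 to 0.626) in small intestine. Of all barcodes, which in stomach were mostly not T cells, the shares were 1.13%, 7.82% and 7.52% in stomach, cecum and colon and 0.158% in small intestine. In small intestine 106 of 2585 Cd3 barcodes held 2 UMIs of the 3 selecting genes, against 585 of 3534 in cecum and 617 of 3428 in colon. The later steps then left 5 of the 106, against 332 of 585 and 283 of 617. Absence of a co-receptor UMI took the small intestine cells from 106 to 25, and absence of Cd79a and Lyz2 from 14 to 5. With S1pr1 and Lef1 alone at 2 UMIs or more, Ly6c2 left uncounted, the shares were 2.98% in stomach, 3.82% in cecum and 4.73% in colon.

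The words double-negative describe detection, not the absence of the proteins. Among T cells with S1pr1, Lef1 and Ly6c2 at 2 UMIs or more and no Trdc, Cd79a or Lyz2 UMI, the share without any Cd8a, Cd8b1 or Cd4 UMI was lower in deeper cells. In cecum it was 75.8% (65.9 to 84.0) under 1500 UMIs, 77.6% (72.7 to 82.1) from 1500 to under 3000, 37.3% (25.8 to 50) from 3000 to under 5000, and 22.2% (2.81 to 60.0) in the 9 cells at 5000 or more. In colon the same bins gave 80% (51.9 to 95.7), 69.7% (64.1 to 74.9), 57.1% (48.7 to 65.3) and 24.5% (13.8 to 38.3). Cd8a was the co-receptor gene seen most in deep cells, in 67.9% of the colon cells at 5000 UMIs or more, against 15.1% for Cd8b1 and 7.55% for Cd4. When cells of 3000 UMIs or more were thinned to 1500, a check added after seeing the data, the share without a co-receptor UMI went from 35.5% to 55.3% of 76 cecum cells and from 48.5% to 64% of 200 colon cells. Stomach did not follow this order: the shares were 43.3% (31.2 to 56.0) from 1500 to under 3000 UMIs and 66.7% (29.9 to 92.5) in the 9 deepest cells, with intervals that overlapped.

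**Figure D1:**
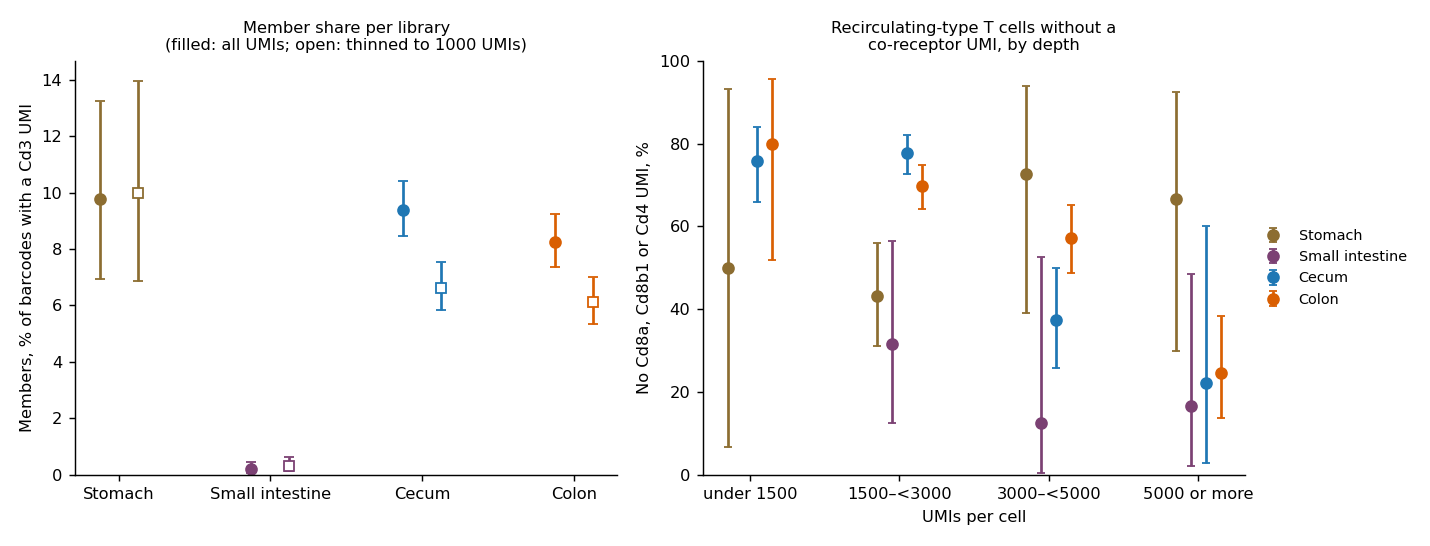
Left: recirculating-type double-negative T cells as a percentage of barcodes with a Cd3 UMI in each library, with all UMIs (filled) and after thinning to 1000 UMIs per cell (open). Right: percentage of recirculating-type T cells (S1pr1, Lef1 and Ly6c2 at 2 UMIs or more) with no Cd8a, Cd8b1 or Cd4 UMI, by UMIs per cell; bars are exact 95% binomial intervals. The small intestine share was 0.193%, and the colon share without a co-receptor UMI went from 80% in the shallowest to 24.5% in the deepest cells.

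Receptor transcripts that the rule did not use were present in nearly all the cells. Trbc2, a constant gene of the TCR beta chain, had a UMI in 95.8% (93.0 to 97.7) of the cecum cells, 97.2% (94.5 to 98.8) of the colon cells and 94.4% (81.3 to 99.3) of the stomach cells. In B cells of the same libraries (2 UMIs or more of Cd79a, Cd79b and Ms4a1, no Cd3), which should lack it, the shares were 1.62%, 3.31% and 2.73%, at median depths of 1237, 1942 and 2541.5 UMIs. Trac, the alpha chain constant gene, had a UMI in 68.1% (62.8 to 73.1) of cecum and 74.6% (69.1 to 79.5) of colon cells, and Trac, Trbc1 or Trbc2 in 99.7% and 99.3%. A gamma chain constant gene was seen in 9.94% (6.94 to 13.7) of cecum and 18.7% (14.4 to 23.8) of colon cells, against 21.0% (18.8 to 23.3) and 35.5% (31.4 to 39.7) of the other double-negative T cells. After thinning these shares were 5.52% and 6.43% against 12.2% and 18.5%. Beta V segments were scarce in these 3′ reads: 23 cecum cells and 33 colon cells held one, from 12 of 15 and 16 of 19 listed segments. The most frequent, Trbv12-2, was in 4 cecum and 9 colon cells, so the cells did not share a single segment.

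Markers of innate-like T cells and of other cell types were low for some lists and not for others. Zbtb16, the factor of NKT and MAIT cells, had 1 UMI over the cecum cells, 3 over the stomach cells and 0 over those of colon and small intestine; the 0 in colon allows up to 3.73 CPM, the value of 3 counts. CPM here is a gene's UMIs over all UMIs of the group, times 1000000. Of the list of innate-like and type 17 genes, 1 was high enough to compare with other double-negative T cells. That gene, Ramp1, is also in the recirculation list and had log2 ratios of 1.58 in cecum and 1.93 in colon. Foxp3, the factor of regulatory T cells, had 1 UMI in cecum and 0 in the other libraries. Of 16 B cell markers 13 had a UMI in cecum and 9 in colon, with summed levels of 654 and 439 CPM against 107896 and 108436 CPM in the B cells. Of 13 epithelial markers 3 and 7 had a UMI, with summed levels of 78.0 and 59.7 CPM. The mast cell list reached 6111 CPM in stomach and 703 CPM in cecum, with 84.7% and 89.6% of those UMIs in 1 cell each, and 68.4 CPM in colon. The list of NK cells and innate lymphoid cells reached 4921 CPM in stomach, 1408 in cecum and 1385 in colon, with 8, 8 and 9 of 10 genes seen. It includes Tyrobp, at 1359, 422 and 304 CPM, while Ncr1, a defining NK receptor, had a UMI in 6, 10 and 11 cells. The macrophage and dendritic cell list reached 3254, 1367 and 997 CPM, of which Fcer1g alone made 3066, 1341 and 977 CPM; the macrophage genes C1qc and Adgre1 were at 0 in cecum and colon. In B cells this list was at 8457, 1339 and 2589 CPM. In small intestine 1 of the 5 cells held 564 UMIs of the plasma cell gene Jchain and 19 of Siglech, a marker of plasmacytoid dendritic cells. With 5 cells, small intestine is given below by its values only, and its cells are not compared.

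Klf3 and Sidt1, markers of the class outside the rule, had UMIs in a minority of the cells. Klf3, a repressor related to KLF2, was at 304 CPM (263 to 350) in cecum, 270 (235 to 308) in colon, 69.4 (27.9 to 143) in stomach and 156 (32.1 to 455) in small intestine. Sidt1, which encodes a transmembrane protein tied to transport of double-stranded RNA, was at 310 (269 to 356), 271 (236 to 310), 69.4 (27.9 to 143) and 51.8 (1.31 to 289) CPM in the same order. Both were thus high in cecum and colon, with overlapping intervals, and lower in stomach. Klf2 had the same pattern at a higher level: 3330 CPM (3192 to 3473) in cecum and 3126 (3005 to 3250) in colon against 397 (284 to 540) in stomach and 1815 (1264 to 2524) in small intestine, where 1 cell held 65.7% of its UMIs. The interval of the stomach cells lay below those of cecum and colon for all 3 genes. Other cells of the libraries had the same order: Klf2 was at 196 CPM in stomach and 623 in cecum in other double-negative T cells (those with fewer than 2 UMIs of the selecting genes) and at 625 and 3762 CPM in B cells. In other double-negative T cells Klf3 was at 33.3 and 139 CPM and Sidt1 at 16.7 and 90.6 CPM. The stomach cells of this comparator were mixed. They held the mast cell list at 36553 CPM, and 75.3% of the 89 cells had a UMI of Trac, Trbc1 or Trbc2. Fewer cells with a transcript and less of it per cell cannot be told apart in these sums, although the shares of cells with Klf2 ran the same way: 81.9% in cecum, 90.5% in colon and 44.4% in stomach.

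Other genes were higher in the stomach cells than in those of cecum and colon. S100a4, a calcium-binding protein of effector and memory cells, was at 1359 CPM (1141 to 1607) in stomach against 196 (163 to 233) in cecum and 215 (184 to 250) in colon. S100a6 was at 2629 (2322 to 2965), 497 (444 to 554) and 774 (714 to 837) CPM. Cxcr6, a chemokine receptor of tissue-lodged T cells, was at 536 (402 to 699) CPM in stomach, 53.5 (37.3 to 74.4) in cecum and 82.1 (63.5 to 104) in colon. The activating NK receptor Klrk1 (NKG2D) was at 794 (629 to 988), 390 (343 to 441) and 306 (269 to 347) CPM. Each of these stomach intervals lay above those of cecum and colon, from 36 cells. Levels of these genes in other cells of the stomach library were not compared here. Cells with Ly6c2 and no S1pr1 or Lef1 UMI made up 52.8% of the stomach cells, 33.4% of the cecum cells and 19.4% of the colon cells.

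The comparison with other double-negative T cells asked what accompanies the selecting genes. The comparator met every other part of the rule but held fewer than 2 UMIs of S1pr1, Lef1 and Ly6c2 (1298 cells in cecum, 533 in colon). Of 4376 genes compared in cecum (50 CPM in either group, 20 UMIs together), 2.19% were 2-fold or more higher and 1.46% were 2-fold or more lower in recirculating-type cells. In colon 2.37% of 4343 genes were higher and 3.36% were lower. Since the rule drew on this contrast, nothing is read from these shares. Lowering the minimum from 50 to 20 CPM moved the counts from 96 to 166 higher and 64 to 229 lower genes in cecum, and from 103 to 190 and 146 to 407 in colon.

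In the list of recirculation and naive genes, without the rule's own, 13 of 21 compared genes were 2-fold or more higher in cecum and 17 of 24 in colon, and 0 were lower in either. The median log2 ratio of the list was 1.13 in cecum and 1.73 in colon, where all compared genes had medians of -0.06 and -0.06. A list gene could enter this comparison through the group in which it was high. The list counts and medians against this comparator are therefore no support for a direction. Il7r, the receptor chain for the survival cytokine IL-7, was 8.04-fold (5.68 to 11.5) higher in cecum and 11.6-fold (8.23 to 16.6) higher in colon. For Klf2 the ratios were 5.35 (5.0 to 5.72) and 5.57 (5.16 to 6.02), with UMIs in 26.1% and 33.6% of the comparator cells. With S1pr1 and Lef1 alone counted by the rule, the log2 ratio of Klf2 in cecum was 0.92, under 2-fold. Ccr7 was 6.17-fold (3.57 to 10.9) higher in cecum and 36.0-fold (13.5 to 136) higher in colon, where the comparator had 4 UMIs.

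The class markers outside the rule differed less. Klf3 was 2.19-fold (1.82 to 2.62) higher in cecum and 2.32-fold (1.90 to 2.84) higher in colon, and Sidt1 was 3.43-fold (2.81 to 4.18) and 3.79-fold (3.01 to 4.80) higher. In cecum the log2 ratio of Klf3 was 0.84 without counting Ly6c2 and 0.76 after thinning, both under 2-fold. S1pr4, a second sphingosine 1-phosphate receptor of lymphocytes, was 2.25-fold (1.56 to 3.21) and 3.45-fold (2.38 to 5.05) higher. Tcf7 and Foxo1, the latter an activator of Klf2 and Il7r in T cells, stayed under 2-fold: the ratios were 1.31 and 1.5 for Tcf7 and 0.976 and 1.28 for Foxo1. The 12 genes with the highest ratios over both libraries also held genes outside the list. Adgre5 (CD97, an adhesion receptor) was 5.50-fold (4.13 to 7.35) and 5.08-fold (3.99 to 6.51) higher, Lgals1 (galectin-1) 4.32-fold and 6.37-fold, and S100a4 13.9-fold (9.38 to 21.2) and 3.93-fold (3.03 to 5.14).

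Of the T-box and type 1 response list 3 of 12 genes were 2-fold or more higher in cecum (Ifng, Il18r1, Ccl5) and 5 of 12 in colon (also Ccl3 and Hopx), and 0 were lower. Of the cytotoxic granule list 0 of 10 and 0 of 11 were higher, 1 was lower in cecum (Gzmc) and 4 in colon (Gzma, Gzmb, Gzmc, Fasl). For Gzma, 1 comparator cell held 77.3% of the UMIs. Ifng, the cytokine interferon gamma, was at 576 CPM in the cecum cells against 69.5 in the comparator, a ratio of 8.30 (6.87 to 10.1), and at 417 against 63.4 CPM in colon, a ratio of 6.57 (5.25 to 8.28). When the rule counted S1pr1 and Lef1 alone, the log2 ratio of Ifng went from 3.05 to 0.65 in cecum and from 2.72 to -0.93 in colon. That setting moves all cells with fewer than 2 UMIs of S1pr1 and Lef1 together into the comparator, those with Ly6c2 only among them. Il18r1, a chain of the IL-18 receptor, was 6.72-fold (5.04 to 9.02) and 3.58-fold (2.82 to 4.57) higher, and the chemokine gene Ccl5 2.91-fold (2.82 to 3.0) and 2.64-fold (2.57 to 2.72). Tbx21, the transcription factor T-bet that drives Ifng, had ratios of 1.24 (0.881 to 1.73) and 1.10 (0.766 to 1.55).

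Lower genes included those of intraepithelial residence. Itgae was at 59.6 CPM in cecum cells against 163 in the comparator, 2.74-fold (1.96 to 3.91) lower, and at 54.7 against 188 CPM in colon, 3.44-fold (2.5 to 4.84) lower. Asb2 was 9.28-fold (4.43 to 23.4) and 8.42-fold (4.82 to 16.1) lower, from 7 UMIs in cecum and 13 in colon. P2rx7, a receptor for extracellular ATP, was 3.19-fold (2.02 to 5.33) and 3.46-fold (2.30 to 5.39) lower. Kit was 2.88-fold and 3.79-fold lower, Capn3 4.43-fold and 4.59-fold, and the receptor gene Cd160 1.97-fold and 2.56-fold. With S1pr1 and Lef1 alone counted by the rule, the cecum log2 ratios were -0.43 for Itgae, -0.74 for P2rx7 and -0.81 for Kit. These 3 cecum differences were thus under 2-fold without Ly6c2, while in colon the same genes stayed at 2-fold or more. The residency list as a whole was split, with 2 of 21 genes higher and 2 lower in cecum, and 1 higher and 7 lower in colon. Its higher genes were Nr4a1 in both, at 2.04-fold and 2.03-fold, and in cecum Cd69, at 2.17-fold (1.99 to 2.38). Nr4a1 and Cd69 are also quickly induced by receptor signalling. Of the NK-type receptor list 0 of 13 and 0 of 11 genes were higher, and 2 were lower in each library, Klra5 and Klrb1a. In colon, the comparator also held epithelial transcripts, at 1563 CPM against 59.7 CPM, with 60.0% of those UMIs in 1 cell. Without every barcode that carried Epcam, Krt8, Krt18, Siglech or Cpa3 the count of lower colon genes was 101 against 146.

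**Figure D2:**
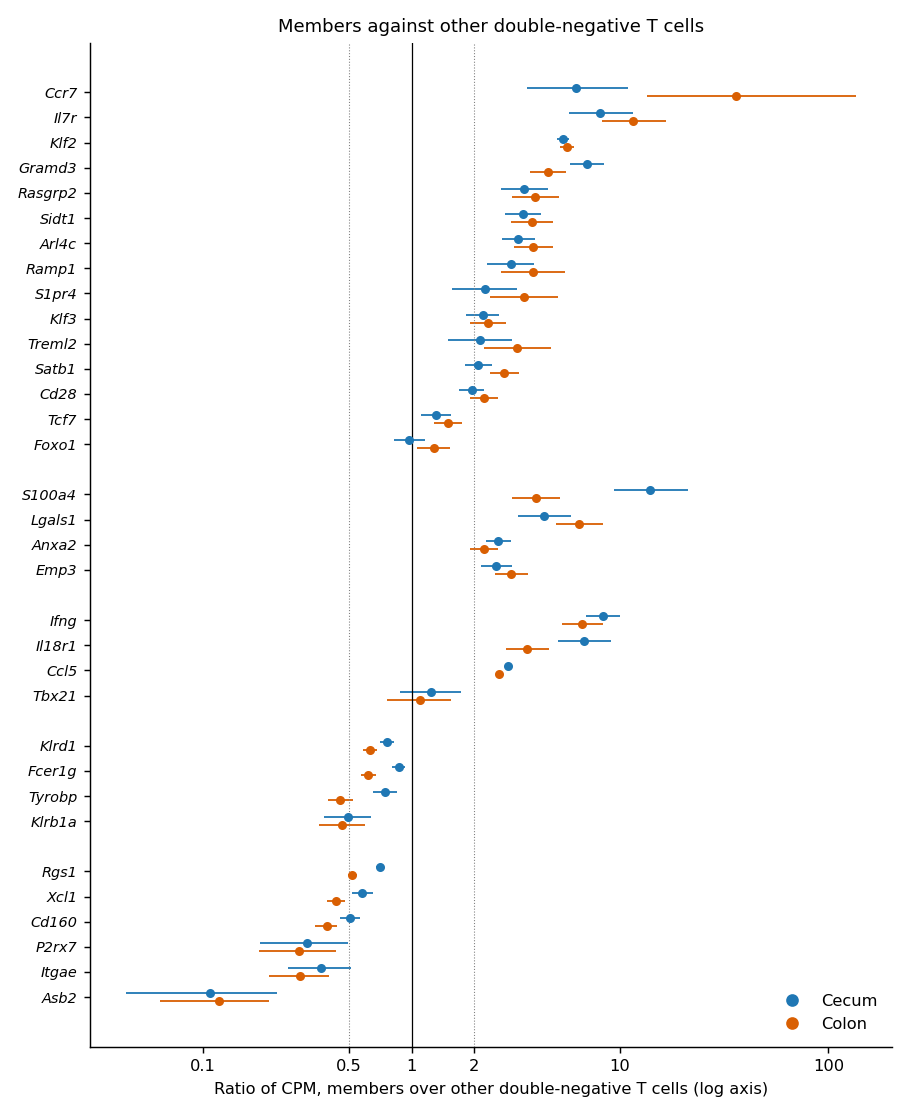
Ratio of CPM in recirculating-type over other double-negative T cells, on a log axis, in cecum (blue) and colon (orange), with exact 95% intervals; dotted lines mark 2-fold. Groups from top to bottom are recirculation and naive genes, S100 and cytoskeleton genes, type 1 genes, NK-type receptors and adaptors, and residence genes; Klf2 lies at 5.35 and 5.57 and Itgae at 0.366 and 0.291.

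Levels on either side of the threshold are given as a description, since the rule used these UMIs. Klf2 was at 487 CPM in cecum double-negative cells with 0 UMIs of the selecting genes, 1286 with 1 (just outside the rule), 2200 with 2 (just inside), 3842 with 3 to 4 and 3730 with 5 or more. In colon the levels were 492, 801, 2307, 3032 and 3476 CPM. Il7r ran from 19.1 over 31, 58.8 and 149 to 273 CPM in cecum and from 14.4 over 61.0, 79.1 and 262 to 377 CPM in colon. Itgae ran the other way, from 169 over 134, 123 and 27.1 to 40.8 CPM in cecum, and from 200 over 147, 122 and 49.5 to 32.0 CPM in colon. Between cells just outside and just inside the threshold the intervals of Klf2 did not overlap in either library. They were 1176 to 1404 and 1993 to 2424 CPM in cecum, and 711 to 899 and 2080 to 2551 CPM in colon. Those of Asb2 in cecum and of S100a4, Klrd1 and Cd160 in colon did not overlap either. Those of Il7r, Itgae, Klf3 and Sidt1 overlapped in both libraries, and colon Klf3 was lower just inside, at 134 against 172 CPM. Above 2 UMIs the cecum intervals of Klf2 overlapped. Median depth differed little along the scale, from 1648 to 1960.5 UMIs in cecum and from 2565.5 to 2728.5 in colon.

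**Figure D3:**
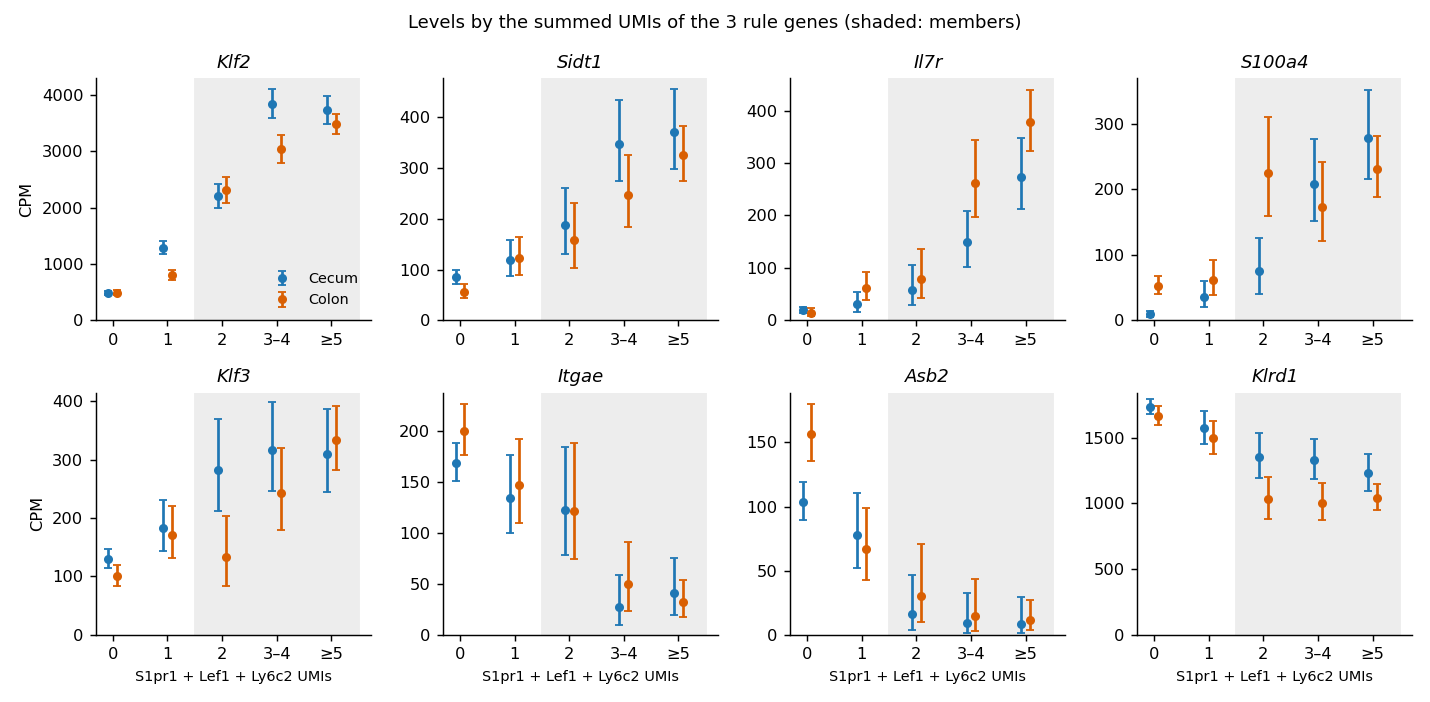
CPM of 8 genes in double-negative T cells of cecum (blue) and colon (orange) by the summed UMIs of S1pr1, Lef1 and Ly6c2, with exact 95% Poisson intervals; cells in the shaded range met the rule. Klf2 in cecum goes from 487 CPM at 0 UMIs to 3730 at 5 or more, and Itgae from 169 to 40.8.

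Within the recirculating-type cells, those found by Ly6c2 and those found by S1pr1 or Lef1 differed from each other. In cecum 111 cells held Ly6c2 with S1pr1 and Lef1 at 0, 78 held S1pr1 or Lef1 with Ly6c2 at 0, and 143 held both kinds. In colon the numbers were 55, 73 and 155, in stomach 19, 5 and 12, and in small intestine 2, 2 and 1. The Ly6c2-only share was 33.4% (28.4 to 38.8) of the cecum cells, 19.4% (15 to 24.5) of the colon cells and 52.8% (35.5 to 69.6) of the stomach cells. The intervals did not overlap between cecum and colon, whose median depths were 1819 and 2606 UMIs. Between the classes 4.56% of 3707 genes were 2-fold or more higher and 5.37% lower in Ly6c2-only cells of cecum, and 3.21% higher and 5.61% lower of 3744 genes in colon. Median depths of the 2 classes were 1800 and 1746 UMIs in cecum and 2534 and 2564 in colon.

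Ly6c2-only cells carried more NK-type receptor and type 1 transcripts. Ifng was at 965 CPM (837 to 1107) in Ly6c2-only, 550.5 (469 to 643) in both-kind and 79.5 (41.1 to 139) in S1pr1/Lef1-only cells of cecum, and at 1032 (878 to 1205), 393 (336 to 456) and 18.8 (5.12 to 48.1) CPM in colon. The intervals did not overlap between the 3 classes in either library, while 1 cell held 38.1% of the Ifng UMIs of the colon Ly6c2-only cells and 58.3% of the few of the cecum S1pr1/Lef1-only cells. Klre1 (NKG2I), an NK lineage receptor, was at 245 against 13.2 CPM in cecum, a ratio of 18.5 (4.87 to 157), and at 232 against 32.9 CPM in colon, a ratio of 7.06 (3.10 to 18.8). Klrk1 was 9.86-fold (4.84 to 23.4) and 4.69-fold (2.95 to 7.73) higher, and Il18r1 5.15-fold (2.45 to 12.5) and 4.04-fold (2.29 to 7.47). Of the NK-type receptor list 8 of 12 compared genes were 2-fold or more higher in cecum and 1 was lower, Klrb1a. In colon 6 of 9 were higher and 0 lower. The median log2 ratios were 1.52 and 2.23 against -0.10 and -0.08 over all genes. A gene could enter these counts and medians through the class in which it was high, so they are no support for a direction. Of all 24 genes of the list in the files, with no minimum, 17 had a higher level in Ly6c2-only cells of cecum, 4 a lower one and 3 were at 0 in both, and in colon 19, 3 and 2. How many of all genes had a higher level with no minimum was not counted, so nothing is read from these numbers. Klra1, Klra6 and Klra7, members of the Ly49 family, were 2-fold or more higher in both; their sequences are alike, so counts may be split between copies.

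Immediate early and heat-shock genes were higher in the same cells. Of that list 14 of 29 genes in cecum and 11 of 29 in colon were 2-fold or more higher and 0 lower, where 4.56% and 3.21% of all compared genes were higher. A gene could pass the minimum through the class in which it was high, so the list count is no support for a direction. Of all 33 listed genes, with no minimum, 33 had a higher level in Ly6c2-only cells of cecum and 31 in colon. The share over all genes with no minimum was not counted, so nothing is read from this. Jun was at 4929 against 1742 CPM in cecum, a ratio of 2.83 (2.47 to 3.25), and at 2999 against 1446 CPM in colon, a ratio of 2.07 (1.79 to 2.40). Atf3 had 77 UMIs against 0 in cecum, at least 18.2-fold higher with 3 counts allowed in the cells at 0, and was 10.3-fold (4.38 to 29.5) higher in colon, where 1 cell held 53.3% of its UMIs. Hspa1b, a near-identical copy of Hspa1a, was 2.79-fold and 7.82-fold higher. Genes of this list are known to be induced quickly by receptor signalling and by cell isolation.

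S1pr1/Lef1-only cells carried more Ccr7, Foxo1 and Trbc1. Ccr7 was at 179 CPM (118 to 260) in these cells of cecum against 18.8 (5.13 to 48.2) in Ly6c2-only cells, and at 221 (162 to 293) against 12.9 (1.56 to 46.6) CPM in colon. Foxo1 was 2.45-fold (1.59 to 3.83) and 2.29-fold (1.37 to 4.01) higher in them, and Trbc1 1.63-fold (1.38 to 1.93) and 1.67-fold (1.39 to 2.02). In colon, Igfbp4 had 38 UMIs and Dapl1, a gene of naive and stem-like memory CD8 T cells, 21 UMIs in S1pr1/Lef1-only cells, and both were at 0 in Ly6c2-only cells, which makes them at least 9.22-fold and 5.10-fold higher. The recirculation list was not uniform between the classes. In cecum 5 of 21 genes were higher in Ly6c2-only cells, among them Klf2 at 2.78-fold (2.43 to 3.20) and Sidt1 at 2.55-fold (1.47 to 4.66), and 2 were lower, Ccr7 and Actn1. In colon 1 of 24 was higher, Sidt1 at 2.24-fold (1.40 to 3.66), and 4 were lower. S1pr1/Lef1-only cells of cecum also held more Itgae, at 179 CPM against 9.41 CPM from 2 UMIs, a ratio with an interval of 4.77 to 165; in colon it was 98.6 against 51.6 CPM, with an interval that held 1.

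**Figure D4:**
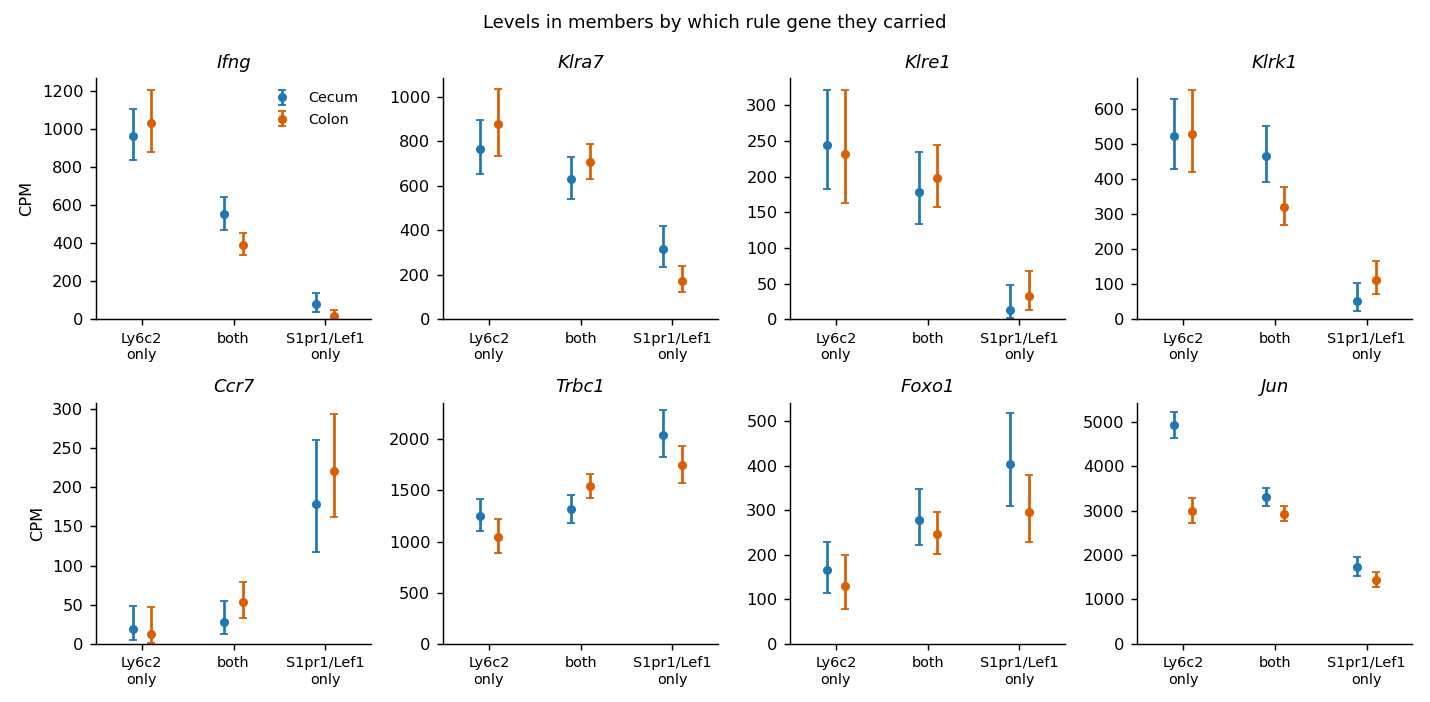
CPM of 8 genes in recirculating-type cells that held Ly6c2 only, both kinds, or S1pr1 or Lef1 only, in cecum (blue) and colon (orange), with exact 95% Poisson intervals. Ifng goes from 965 over 550.5 to 79.5 CPM in cecum, and Ccr7 runs the other way, from 18.8 over 27.5 to 179.

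A further comparator was T cells that met the same selecting genes but held a Cd8b1 UMI and no Cd4 UMI, 50 in cecum and 53 in colon. The rule's limit on the helper genes was not applied to these comparators. In cecum 4.68% of 4462 genes were 2-fold or more higher in the double-negative cells and 5.29% were lower, and in colon 3.53% of 4361 genes were higher and 4.2% lower. The strongest lower genes (Ly6d, Siglech, Cd74, H2-Aa, H2-Ab1, H2-Eb1) are those of dendritic and other antigen-presenting cells. Of their UMIs in the comparator, 1 barcode held 64.7% for Siglech in cecum and 59.4% in colon. The remaining values therefore leave out barcodes with Siglech or with 3 or more UMIs of Cd74 and H2-Aa, a choice made after seeing the data, which left 48 and 51 comparators. With them 4.65% of 4579 genes were higher and 4.94% lower in cecum, and 4.5% of 4263 genes were higher and 3.73% lower in colon.

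Klf2, Klf3 and Sidt1 were within 2-fold of the Cd8b1-positive cells. The ratios for Klf2 were 1.27 (1.12 to 1.43) in cecum and 0.925 (0.844 to 1.02) in colon, and for Sidt1 1.08 (0.748 to 1.60) and 1.06 (0.760 to 1.51). Of the recirculation list 0 of 24 genes in cecum and 0 of 25 in colon were 2-fold or more higher, and 4 were lower in each. Ccr7 was 5.82-fold (3.64 to 9.33) and 5.84-fold (4.22 to 8.11) lower, Igfbp4 6.36-fold (3.34 to 12.2) and 3.82-fold (2.44 to 5.92) lower, and Dapl1 4.23-fold (1.89 to 9.25) and 6.56-fold (4.30 to 10.1) lower. For Igfbp4 in cecum, 1 comparator cell held 52.2% of the UMIs. Lat, an adaptor of TCR signalling, was 2.19-fold (1.56 to 3.03) and 2.08-fold (1.57 to 2.73) lower, and Bcl11b, a T cell identity factor, 1.87-fold and 2.48-fold. Of the NK-type receptor list 4 of 12 genes in cecum and 7 of 11 in colon were 2-fold or more higher, and 0 and 1 lower. Of the immediate early and heat-shock list 4 of 29 and 9 of 29 were higher and 0 lower. As a gene could enter these list counts through the group in which it was high, they are no support for a direction. Fcer1g, a signalling chain shared by Fc and NK receptors, was 2.25-fold (1.76 to 2.91) and 3.65-fold (2.69 to 5.06) higher, and Tyrobp (DAP12) 2.25-fold (1.46 to 3.65) and 4.16-fold (2.34 to 8.16). Tyrobp in colon was 1.55-fold lower before the dendritic barcodes were left out. Klra7 was 2.02-fold (1.43 to 2.94) and 2.29-fold (1.67 to 3.20) higher, and Ccl5 1.89-fold (1.75 to 2.05) and 2.30-fold (2.15 to 2.46). A Cd8b1 UMI is easier to find in a deep cell: the comparators had median depths of 2077 and 2977 UMIs against 1819 and 2606.

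Between cecum and colon few genes of the recirculating-type cells differed by 2-fold. Of 4210 genes compared, 0.998% were 2-fold or more higher in cecum and 1.66% were 2-fold or more lower. These were 42 and 70 genes, and 175 and 182 with a minimum of 20 CPM. In the recirculation list 0 of 24 genes were higher and 1 was lower, Igfbp4. Cecum cells had more of Sgk1, a kinase induced by glucocorticoids, at 295 against 106 CPM, a ratio of 2.79 (2.15 to 3.64). Serpinb9, an inhibitor of granzyme B, was 3.07-fold (2.15 to 4.46) higher, Bcl2a1d, a survival gene with near-identical copies, 3.18-fold (1.92 to 5.47), and Dgat1, an enzyme of triglyceride synthesis, 2.86-fold (2.03 to 4.08). In other double-negative T cells the cecum to colon ratios of the same genes were 1.19 (0.908 to 1.56) for Sgk1, 1.17 (0.931 to 1.46) for Serpinb9, 1.01 (0.816 to 1.26) for Bcl2a1d and 1.36 (1.15 to 1.61) for Dgat1, below the interval of the recirculating-type cells for each. Whether these differences hold between animals was not tested. Nr4a2, Fosl2 and Hilpda were 2.24-fold, 2.15-fold and 2.83-fold higher in recirculating-type cells and 1.62-fold, 1.83-fold and 1.91-fold in the other double-negative cells. After thinning to 1000 UMIs their log2 ratios in recirculating-type cells were 0.96, 0.76 and 0.46, all under 2-fold. Without counting Ly6c2, the log2 ratio was 0.99 for Sgk1 and 0.94 for Nr4a2. Serpinb9, Bcl2a1d and Dgat1 stayed at 2-fold or more under the alternatives.

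The lower genes given here were also lower in other cells of the cecum library. Cox7c, a subunit of cytochrome c oxidase, was at 130 CPM in cecum and 381 in colon cells, 2.93-fold (2.30 to 3.77) lower. It was 3.90-fold (3.42 to 4.46) lower in other double-negative T cells and 2.48-fold (1.94 to 3.17) lower in B cells. Ndufa3, of respiratory complex I, was 3.45-fold, 2.79-fold and 3.29-fold lower in the 3 groups, Tomm7, of mitochondrial import, 2.84-fold, 2.71-fold and 2.19-fold, and Fau, a ubiquitin-like and ribosomal fusion gene, 2.52-fold, 2.36-fold and 2.75-fold. Library and tissue cannot be told apart here. Crip1 was 2.39-fold (2.08 to 2.75) lower in the recirculating-type cells, 2.85-fold in other double-negative T cells and 1.60-fold in B cells. Mcpt1, Mcpt2 and Cd74 ranked among the highest cecum genes, with 98%, 99% and 89% of their UMIs in 1 cell, and 91% of the colon UMIs of Gzma were in 1 cell. Without the cell holding most UMIs of a gene, Mcpt2 and Gzma changed direction, so these 4 genes describe single cells.

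**Figure D5:**
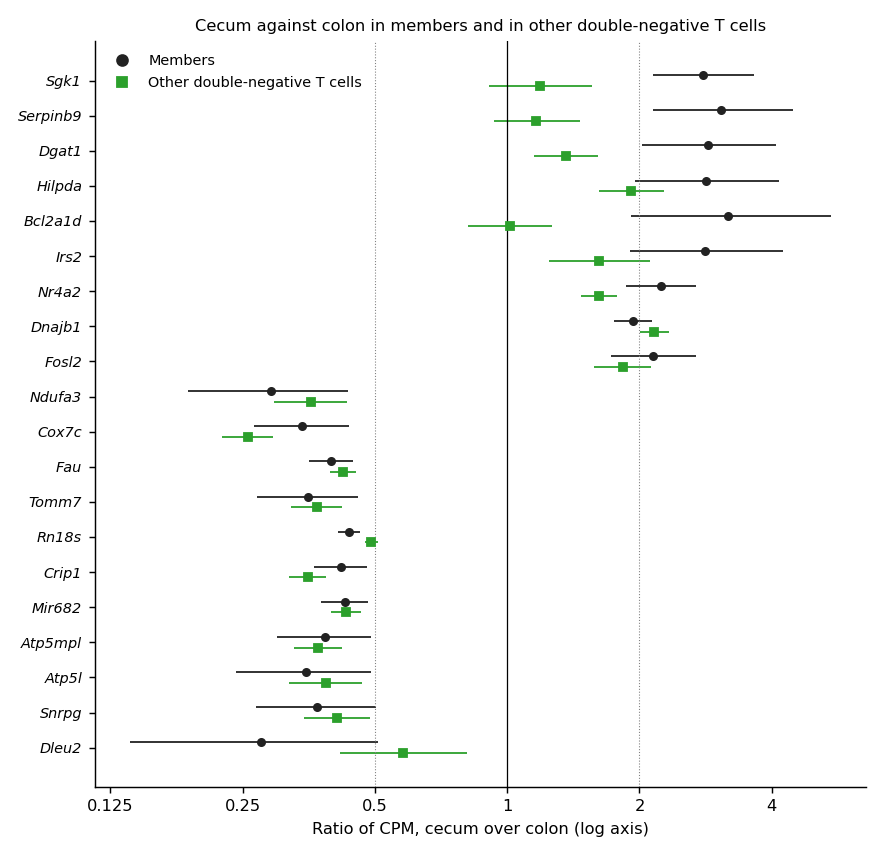
Ratio of CPM in cecum over colon, on a log axis, in recirculating-type cells (black circles) and in other double-negative T cells (green squares), with exact 95% intervals, for 20 of the 24 named genes; 4 genes with more than 50% of their UMIs in 1 cell are left out. Sgk1 lies at 2.79 in the recirculating-type cells and 1.19 in the others, while Cox7c lies at 0.341 and 0.256.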

How the data were processed

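The files hold UMI counts per gene and cell barcode for 4 libraries, 1 per tissue, as deposited by the authors; Cell Ranger, Seurat 3.0.0 and build GRCm38 (mm10) are named with no role in the submitters' processing notes. Filters before deposit are not given in the sources used here, no doublet caller was run, and 1 recirculating-type cell of cecum and 1 of small intestine exceeded 3 times its library's median UMIs. Counts were summed over the cells of a group and given as CPM with exact Poisson intervals, shares with Clopper-Pearson intervals, and ratios with exact conditional binomial intervals, all at 95% (Python 3.11.15, numpy 2.4.6, scipy 1.17.1, pandas 2.3.3, matplotlib 3.10.9, Biopython 1.88). UMIs are counted molecules, but the intervals leave out the spread between animals. A 0 was set to 3 counts for bounds. Compared genes had at least 50 CPM in either group and 20 UMIs together, groups at least 50 cells, and 2-fold was the threshold. The code for ratios was tested on simulated data. Thinning drew 1000 UMIs per cell and left out shallower cells.

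Named genes were the 12 highest and 12 lowest by the interval bound nearest 1 (8 each way between classes), without the rule's, ribosomal, mitochondrial, immunoglobulin, sex-linked and unnamed genes, plus list and marker genes. Members and lists were chosen with earlier results of these data known. Alternatives covered the rule's cut-offs, depth, gene filter, weighting of cells and single cells; those that leave out barcodes by dendritic, epithelial or mast cell transcripts, and the thinning of deep cells to 1500 UMIs, were chosen after seeing the data. Some genes of the lists are not reported here by name.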

Additional observations from a re-analysis of the deposited data

How the results depend on the processing

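Of 795 gene values under an alternative, 12 changed sign and 29 went under 2-fold, and 79 of 100 counts and shares stayed within 1.5 times or within their interval. No paired analysis was possible because each tissue has 1 library. With a minimum of 20 CPM, which admits more genes of low count, 166 genes were higher and 229 lower in recirculating-type than in other double-negative T cells of cecum, 190 and 407 in colon, and 175 and 182 in cecum against colon. With the rule applied after thinning to 1000 UMIs, the shares were 6.63% in cecum and 6.13% in colon, lower genes numbered 176 and 242, and cecum against colon gave 175 higher and 151 lower. With the sum of S1pr1, Lef1 and Ly6c2 at 3 or more, the shares were 6.76% and 6.62%, and 107 genes were lower in cecum. Without counting Ly6c2, the shares were 2.98% in stomach, 3.82% in cecum and 4.73% in colon, cecum against colon gave 127 higher and 136 lower, and the log2 ratio of Ifng in colon was -0.93. Under the same setting Klf2, Klf3, Itgae, P2rx7 and Kit kept their direction in cecum but went under 2-fold. Single genes between cecum and colon turned where few cells held them. The log2 ratio of Mcpt2 was -1.74 after thinning, -1.28 without the top cell and -1.22 without barcodes of epithelial, dendritic or mast transcripts. That of Gzma was 2.65 after thinning, 1.89 at 3 UMIs, 2.04 without Ly6c2, 1.56 with at least 2 Cd3 UMIs and 0.10 without the top cell. Cd74 was at -0.28 at 3 UMIs and Mcpt1 at -0.80 without Ly6c2. Others kept their direction but went under 2-fold, among them Hilpda, Fosl2 and Nr4a2 after thinning, and Sgk1 and Nr4a2 without Ly6c2. Among alternatives chosen after seeing the data, leaving out the epithelial, dendritic and mast barcodes gave a colon share of 10.8%, and leaving out dendritic barcodes gave Tyrobp a log2 ratio of 2.06 against Cd8b1-positive cells in colon. Apart from single-cell genes, the cause was not tested. Depth limits every statement on a gene at 0, and stomach and small intestine held too few cells for ratios.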
